A study of Mus musculus with 6 samples.

Results

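Meiotic and mitotic cohesin subunits, shugoshins and separase were examined in the transcriptome of M II oocytes from aged mice. The 10 genes were fixed by symbol, matched through their Ensembl identifiers, out of 53465 genes in the count table. They are the kleisins *Rec8*, *Rad21l* and *Rad21*, the SMC subunits *Smc1b*, *Smc1a* and *Smc3*, the accessory subunit *Stag3*, the shugoshins *Sgo1* and *Sgo2a*, and the separase gene *Espl1*. Of these, 8 passed the filter on low counts and were tested, while *Rec8* and *Stag3* did not pass it.

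Cohesin is a ring of a pair of SMC proteins closed by a kleisin, with a STAG protein bound to the kleisin, and it holds sister chromatids together. Germ cells replace several mitotic subunits by meiotic ones, and in mouse oocytes the cohesin that holds chromosomes together is loaded before birth and has to last until ovulation. At anaphase, separase cuts the kleisin, and shugoshin recruits the phosphatase PP2A to centromeres, which protects the kleisin there until the second division. Loss of this cohesion is a known feature of oocytes from older females.

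All 6 samples came from Kunming (KM) females of 9 to 10 months, a model of natural ageing, primed with pregnant mare serum gonadotropin. Germinal vesicle oocytes were stripped of cumulus cells and matured in M16 medium for 16 h, 3 pools without quercetin (control) and 3 pools with 10 μM quercetin, a plant flavonoid dissolved in DMSO. Whether the control medium held DMSO is not given in the sources used here. Each pool held 15 oocytes from 3 mice, and because oocytes were pooled, fewer oocytes with a transcript and less transcript per oocyte cannot be told apart. No young mice are among these samples, so age itself was not compared.

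The pools held between 7880467 and 9938743 counts in total. A floor of 3 counts corresponded to between 0.329 and 0.376 CPM (counts scaled to library size, with sizes adjusted by the trimmed mean of M-values, TMM). All 10 oocyte markers, which include *Zp3* and *Gdf9*, were above this floor in every pool, with a summed level of 16300 to 20200 CPM in control and 17800 to 19500 CPM with quercetin. Of 10 cumulus and granulosa markers, *Amh*, *Foxl2*, *Inhbb* and *Ptx3* were at 0 in all pools and 4 were above the floor in every pool. Their summed level was 73.0 to 89.4 CPM in control and 92.9 to 96.3 CPM with quercetin, and the part of these cells in the results below was not tested. *Hba-a1* and *Hbb-bs* were at 0 among 5 blood and immune markers, whose sum was 3.15 to 3.85 CPM in control and 3.51 to 3.77 CPM with quercetin. *Mki67* and *Top2a*, markers of proliferating somatic cells that oocytes can also carry, summed to 92.9 to 119 CPM in control and 48.6 to 146 CPM with quercetin. On the first principal component of all tested genes, quercetin replicate 3 (30.8) lay beside control replicate 2 (31.3) and apart from quercetin replicates 1 (-37.9) and 2 (-30.9).

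The stretches just upstream of 4 of the genes are shown because the main contrasts involve these genes. Whether the stretches bear on the levels was not tested. *Rec8* had no counts, *Smc1b* and *Smc1a* form the meiotic and mitotic pair closest in level, and *Sgo1* had the smallest p of the members. The sequences are from RefSeq on GRCm38.p6, 5′ to 3′ on the gene's strand, and end before the first annotated exon. Capitals mark a match to the E2F motif GCGGGAA or the E-box CACGTG on either strand.
Rec8: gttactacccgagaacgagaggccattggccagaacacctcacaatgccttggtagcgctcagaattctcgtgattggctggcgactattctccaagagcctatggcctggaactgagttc
Smc1b: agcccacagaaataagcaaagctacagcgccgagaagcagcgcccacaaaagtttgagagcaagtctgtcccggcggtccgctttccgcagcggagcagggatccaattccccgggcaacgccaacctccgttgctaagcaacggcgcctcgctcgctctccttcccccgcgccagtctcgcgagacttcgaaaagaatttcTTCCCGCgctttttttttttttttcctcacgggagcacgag
Smc1a: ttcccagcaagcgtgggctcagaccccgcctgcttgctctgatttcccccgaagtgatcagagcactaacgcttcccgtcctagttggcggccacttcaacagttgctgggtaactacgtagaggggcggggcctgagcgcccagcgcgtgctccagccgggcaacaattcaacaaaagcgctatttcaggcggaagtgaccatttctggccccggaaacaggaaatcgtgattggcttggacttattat
Sgo1: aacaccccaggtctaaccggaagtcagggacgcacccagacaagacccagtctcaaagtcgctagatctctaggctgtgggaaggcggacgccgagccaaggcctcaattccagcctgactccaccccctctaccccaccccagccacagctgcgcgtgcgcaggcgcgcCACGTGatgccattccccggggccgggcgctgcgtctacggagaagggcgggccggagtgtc
They lie at chr14:55617916-55618036 on the plus strand, chr15:85131965-85132207 on the minus strand, chrX:152016178-152016427 on the plus strand and chr17:53689334-53689565 on the minus strand, in that order.

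In whole windows of 300 bases (250 before and 50 after the RefSeq start), which were found for 9 of the 10 members, the E2F motif was present in 4 (*Sgo2a*, *Stag3*, *Smc1b* and *Smc1a*). It occurred in 4.6% of 32851 windows of the same length. That share is per window, whereas a member counted if any of its windows held the motif. *Sgo2a* had windows at the RefSeq starts chr1:57985340 and chr1:57995974, and its E2F match lay only in the former. In *Smc1a* the E2F match lay 39 bases into the transcript, outside the printed stretch. The E-box was in 3 (*Stag3*, *Espl1* and *Sgo1*) against 7.15% of windows, with 2 matches in *Sgo1*, 80 and 19 bases before the start, the nearer of which lies outside the printed stretch except for its first base. The letters CCAAT were in 8 of 9, all but *Smc3*, against 37.4%, and TTTGAA, the cell cycle homology region, in 2 (*Rad21l* and *Espl1*) against 17.9%. Each motif was searched on both strands, and a match describes the letters only. The window of *Rad21l* had a GC content of 29.0%, while those of *Rec8*, *Smc1b* and *Smc1a* had 58.3%, 60.0% and 58.3%.

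The counts listed for kleisin genes were almost entirely those of the mitotic gene. *Rec8*, the meiotic kleisin (ENSMUSG00000002324, chr14:55618037-55625395, plus strand), had 0 counts in each of the 6 pools. *Rad21*, the mitotic kleisin (ENSMUSG00000022314, chr15:51962240-51991747, minus strand), had 1453, 1535 and 1422 counts in control replicates 1 to 3 and 1245, 1497 and 1032 with quercetin. Every pool held at least 1032 counts of the mitotic gene and none of the meiotic one.

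Set against a floor of 3 counts per pool and divided by exon length, *Rad21* was at least 239-fold higher than *Rec8*, the bound running from 239 in quercetin replicate 3 to 355 in control replicate 2. No p is given for this pair, since a gene at 0 in every pool fixes the sign of the ratio. *Rec8* shares no exon with another gene, and 0.497% of its 31-base words occur in transcripts of other genes. Its neighbour *Ipo4*, 5 bases away, had between 2 and 13 counts per pool, and *Irf9*, another neighbour, had 0 in all 6. A count of 0 in every pool was found for 6195 of 21942 protein-coding genes (28.2%). *Rec8* is therefore given only as listed at 0: whether *Rec8* reads were lost in alignment or counting was not tested, since the reads were not analysed here.

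*Rad21l*, a second meiotic kleisin (ENSMUSG00000074704, chr2:151645404-151668533, minus strand), was present at a low level. It had 17, 27 and 16 counts in control and 13, 15 and 24 counts with quercetin, and the ranges of the groups overlapped. Its annotated exons (1659 bases) are almost all coding (1656 bases), so a transcribed end outside them would not be counted. Per exon length *Rad21* was 28.6-fold higher than *Rad21l*, a mean log2 ratio of *Rad21l* to *Rad21* of -4.84 ± 0.48 (SD, n = 6 pools). The two-sided exact sign-flip permutation test gave p = 0.0312, the smallest that 6 pools can give, and 0.0391 after Benjamini-Hochberg adjustment over 5 pairs. Those 5 include the pairs of *Rec8* and *Stag3*, whose sign was fixed by counts at or near the floor. The adjusted value depends on them and is not read as a result. Within pools the ratio ran from 0.0264 in quercetin replicate 2 to 0.0605 in quercetin replicate 3.

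The SMC1 genes were the meiotic and mitotic pair that lay closest in level. *Smc1b*, the meiotic form (ENSMUSG00000022432, chr15:85064689-85131964, minus strand), had 216, 296 and 239 counts in control and 135, 151 and 301 with quercetin. *Smc1a*, the mitotic form (ENSMUSG00000041133, chrX:152016428-152062694, plus strand), had 345, 320 and 347 counts in control and 254, 266 and 486 with quercetin. The genes shared 0% of their 31-base words with other transcripts. Quercetin replicate 3 was the highest pool of *Smc1a*, and for *Smc1b* it was level with control replicate 2 once scaled (35.4 and 35.6 CPM).

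Per exon length, the ratio of *Smc1b* to *Smc1a* was 0.893, 1.32 and 0.982 in control and 0.759, 0.81 and 0.883 with quercetin. The mean log2 ratio was -0.11 ± 0.28 (SD, n = 6; exact sign-flip permutation test, p = 0.375, adjusted 0.375), and *Smc1a* was the higher in 5 of 6 pools. The choice of length mattered here: with the longest coding sequence the log2 ratio was -0.64 and without division by length -0.62 (exact sign-flip permutation test, p = 0.0312 for each), *Smc1a* being the higher. With the longest transcript it was -0.41 (exact sign-flip permutation test, p = 0.0625). All 3 quercetin pools had a lower ratio than the 3 control pools, with means of -0.29 ± 0.11 and 0.07 ± 0.29 on the log2 scale. The difference of -0.36 had p = 0.1 in a two-sided exact permutation test, the smallest that 3 pools against 3 can give. Without control replicate 2 the difference was -0.20, and leaving out any 1 of the other pools gave -0.48 to -0.31. The ratio of *Rad21l* to *Rad21* differed by 0.03 on the log2 scale between quercetin and control (exact permutation test, p = 1.0).

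*Smc3*, the SMC partner in both meiotic and mitotic rings (ENSMUSG00000024974, chr19:53600398-53645833, plus strand), was the most abundant member. It had 3605, 3497 and 3739 counts in control and 3024, 3238 and 4086 with quercetin. The quercetin range spanned the whole control range.

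Among STAG subunits the meiotic gene was near the floor. *Stag3* had 3, 0 and 4 counts in control and 0, 0 and 3 with quercetin, 10 counts in all. Its mitotic counterparts *Stag1* and *Stag2* had 2656 and 5365 counts over the 6 pools. Per exon length and from summed counts, *Stag1* was 129-fold higher than *Stag3* (95% interval 70.2 to 270.0) and *Stag2* 372-fold higher (202 to 776), intervals that cover counting error only. Both were above *Stag3* in 6 of 6 pools. No p is given for these pairs, since counts of *Stag3* at or near 0 fix the sign of the ratio.

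**Figure D1:**
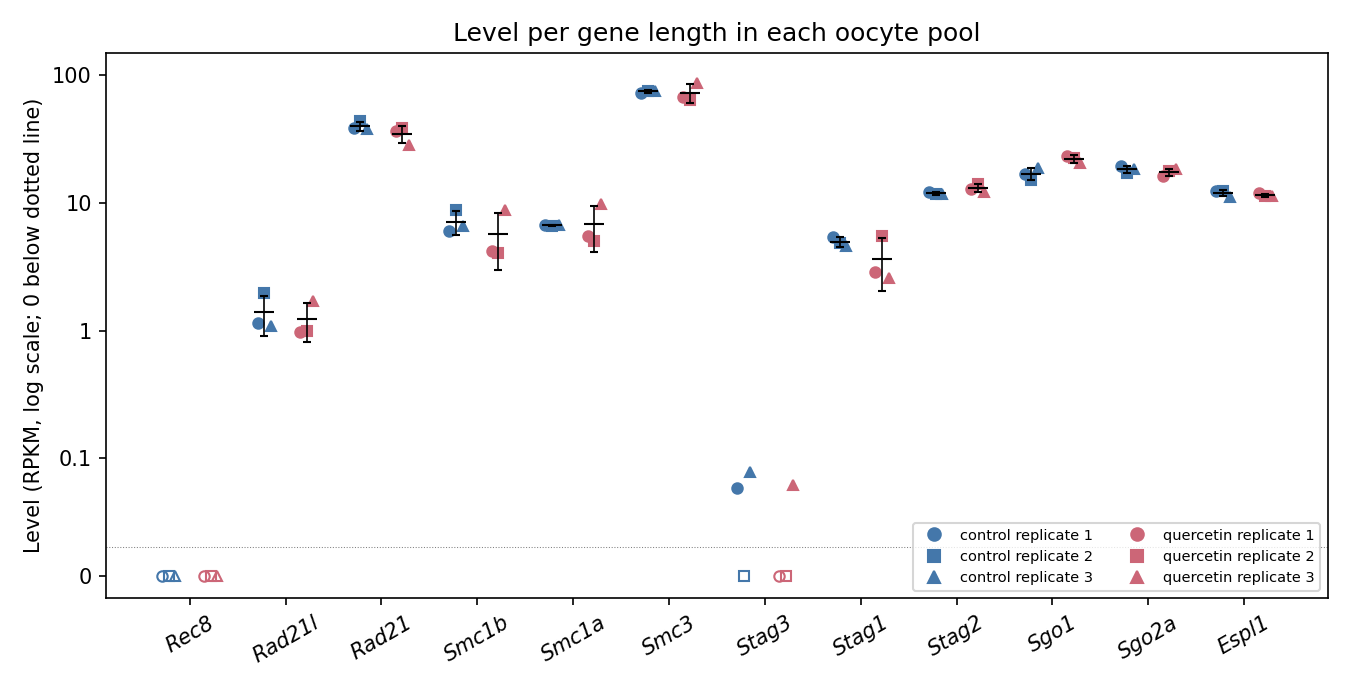
Level of the 10 genes and of the mitotic *Stag1* and *Stag2* in each pool, in RPKM (reads scaled to exon length and TMM library size, log scale); open symbols below the dotted line are pools at 0, and bars are the mean ± SD of 3 pools where none was at 0. *Rec8* sits at 0 in all 6 pools and *Stag3* in 3, while *Smc3* (74.0 RPKM) and *Rad21* (37.4 RPKM) are highest.

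In levels per exon length (RPKM, mean ± SD over the 6 pools), the order was *Smc3* (74.0 ± 7.77), *Rad21* (37.4 ± 4.85), *Sgo1* (19.6 ± 3.23), *Sgo2a* (18.0 ± 1.12), *Espl1* (11.8 ± 0.551), *Smc1a* (6.77 ± 1.7), *Smc1b* (6.41 ± 2.09), *Rad21l* (1.31 ± 0.414), *Stag3* (0.0331 ± 0.0369) and *Rec8* (0). Neighbours in this order did not overlap over the pools except *Sgo1* and *Sgo2a*, *Smc1a* and *Smc1b*, and *Stag3* and *Rec8*. *Sgo1* was above *Sgo2a* in 4 of 6 pools, but in 1 of 6 when the longest transcript was the length and in 6 of 6 with the coding sequence. Among 24437 genes with a level, *Smc3* stood at percentile 96.9, *Rad21* at 94.5, *Smc1a* at 82.6, *Smc1b* at 82.1, *Rad21l* at 64.4 and *Stag3* at 14.8. *Stag2* (12.5 ± 0.917 RPKM) and *Stag1* (4.32 ± 1.28 RPKM) ran over pools from 11.7 to 14.2 RPKM and from 2.59 to 5.52 RPKM. The meiotic subunits thus spanned from 0 to the level of *Smc1b*, and each mitotic subunit was detected in every pool.

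**Figure D2:**
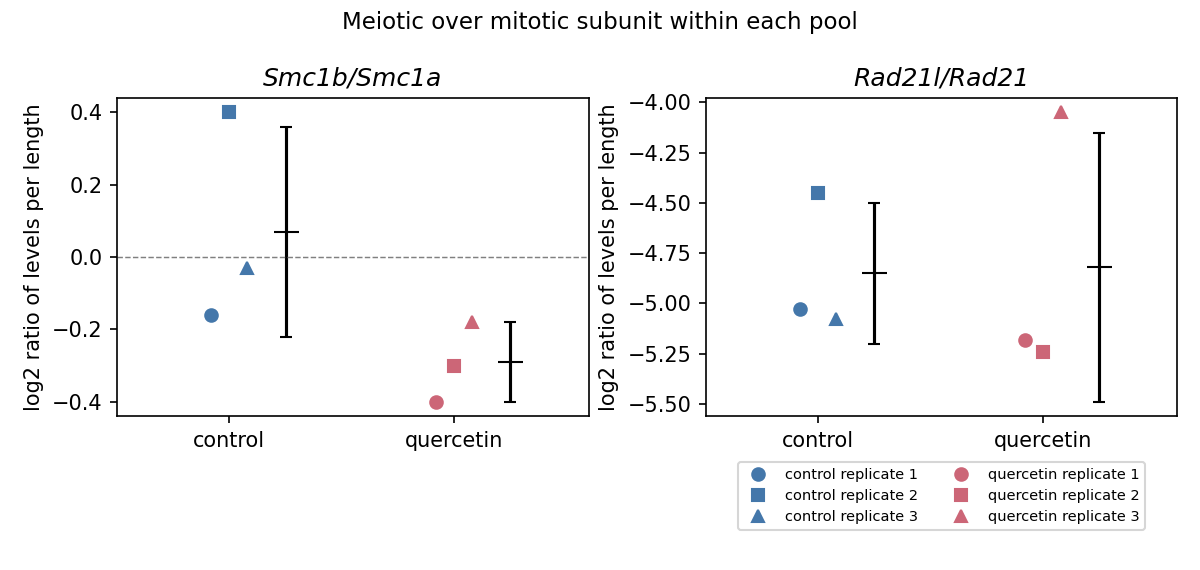
log2 ratio of *Smc1b* to *Smc1a* (left) and of *Rad21l* to *Rad21* (right) per exon length in each pool, with the mean ± SD of 3 pools beside the points; the axes differ. The left ratios lie near 0, with quercetin pools below control pools, and the right ratios lie between -5.24 and -4.05 with overlapping groups.

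The second question of the design is whether quercetin changed these genes. Across all genes, edgeR's quasi-likelihood test called 0 of 11842 genes (0%), where a call needed a Benjamini-Hochberg adjusted p under 0.05 together with more than a 2-fold change. At an unadjusted p under 0.05 it gave 477 genes, and the same criteria gave 12 genes in DESeq2, 16 in edgeR's likelihood ratio test and 0 in limma-voom. In simulated counts of this design, 6% of genes with a 2-fold change were recovered, compared with 83.5% at 4-fold and 94.5% at 8-fold. Recovery there needed only an adjusted p under 0.05, without the fold change criterion.

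Among the 8 tested members, 1 (*Sgo1*) had an unadjusted p under 0.05, against 4.03% of all tested genes. It was higher with quercetin, a direction with 2.14% of all tested genes, and no member was lower at that threshold (1.89% of all tested genes). The median log2 fold change of the 8 was -0.07, with 2 above 0 and 6 below, beside a median of -0.03 over all tested genes, of which 5490 were above 0 and 6352 below.

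*Sgo1* (ENSMUSG00000023940, chr17:53674786-53689333, minus strand), which protects centromeric cohesion in mitosis, had 577, 480 and 638 counts in control and 715, 785 and 664 with quercetin. In CPM it was at 64.7, 57.7 and 71.8 in control and 89.6, 86.1 and 78.2 with quercetin. All 3 quercetin pools were above all 3 control pools, as for 5.42% of all tested genes in this direction. The mean level was 64.7 ± 7.04 CPM in control and 84.6 ± 5.85 CPM with quercetin (SD, n = 3). The log2 fold change was 0.39 (SE 0.16, 95% interval 0.03 to 0.74), or 1.31-fold. The unadjusted p of edgeR's quasi-likelihood test was 0.0364 and the Benjamini-Hochberg adjusted p 0.988, so the difference did not pass the test. Over the 15 alternatives its log2 fold change ran from 0.30 to 0.48. The unadjusted p ran from 0.0234 to 0.13 in the 14 of them with an edgeR, DESeq2 or limma fit, and was above 0.05 in the likelihood ratio test, with library size only, with the replicate block, without control replicate 1 or 2 and without quercetin replicate 1 or 2. The summed cumulus and granulosa markers also did not overlap between the groups, and their part in the *Sgo1* values was not tested.

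*Sgo2a*, the shugoshin that protects centromeric cohesin in oocytes (ENSMUSG00000026039, chr1:57995971-58025899, plus strand), did not pass the test. Its counts were 1213, 1005 and 1160 in control and 912, 1131 and 1104 with quercetin, and the groups overlapped. The log2 fold change was -0.07 (SE 0.14, 95% interval -0.38 to 0.24, edgeR Benjamini-Hochberg adjusted p = 0.99). Over 35% of its exon length it overlaps *Kctd18* on the other strand, so reads of the pair cannot be told apart if strand was not used in counting.

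*Espl1*, the protease that cuts the kleisin (ENSMUSG00000058290, chr15:102296266-102324357, plus strand), had 967, 904 and 870 counts in control and 829, 908 and 842 with quercetin. Of the tested members it varied least over the 6 pools, with a range of 0.15 in log2 CPM. The log2 fold change was -0.06 (SE 0.14, 95% interval -0.37 to 0.25, edgeR Benjamini-Hochberg adjusted p = 0.993).

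No cohesin subunit passed the test. The log2 fold change was -0.33 for *Smc1b* (SE 0.32, interval -1.06 to 0.40), -0.18 for *Rad21l* (SE 0.41, interval -1.11 to 0.74) and -0.20 for *Rad21* (SE 0.16, interval -0.56 to 0.16). It was 0.02 for *Smc1a* (SE 0.26, interval -0.57 to 0.62) and -0.04 for *Smc3* (SE 0.15, interval -0.38 to 0.30). Benjamini-Hochberg adjusted p-values of edgeR's quasi-likelihood test were between 0.988 and 0.999 for these 5 genes. Scaled by library size only, *Rad21* was lower in all 3 quercetin pools than in the control pools, whereas under TMM scaling the groups overlapped. The share of all tested genes that were lower in this way under library size only was not counted. That scaling also moved the median log2 fold change of all genes from -0.03 to -0.11. The intervals of *Smc1b* and *Rad21l* reach beyond a 2-fold decrease, so a decrease of that size is not excluded for these genes.

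**Figure D3:**
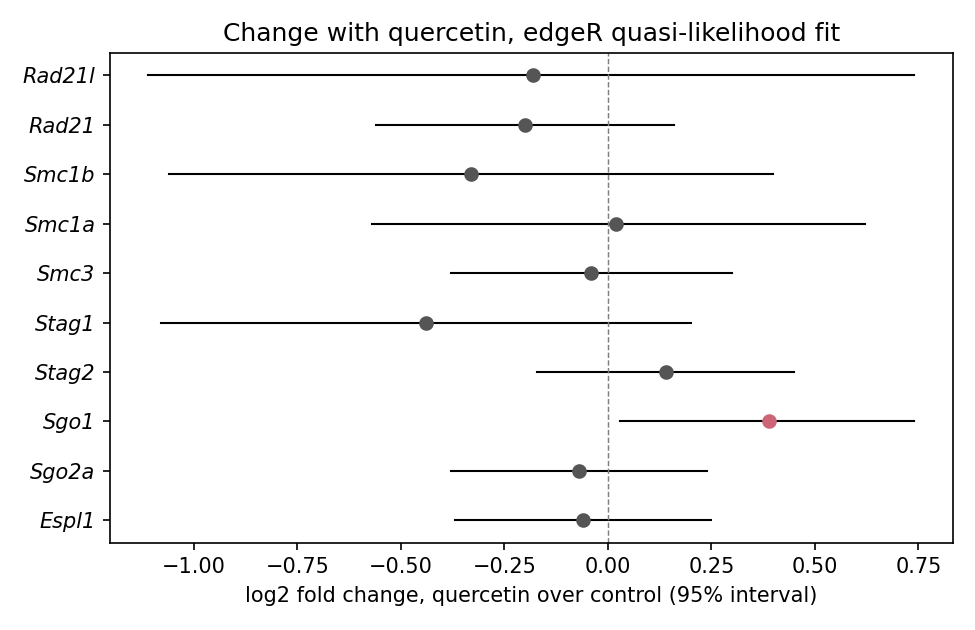
log2 fold change of quercetin over control from edgeR for the 8 tested genes and for *Stag1* and *Stag2*, with 95% intervals (lines). The interval of *Sgo1* (0.03 to 0.74) lies above 0, and all the other intervals include 0.

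The spread among quercetin pools exceeded that among control pools for the SMC genes. *Smc1a* varied 1.01-fold over control pools and 1.96-fold over quercetin pools (CPM), and *Smc3* 1.04-fold and 1.35-fold. Quercetin replicate 3 was 2.12 times the mean of replicates 1 and 2 for *Smc1b*, 1.88 times for *Smc1a*, 1.73 times for *Rad21l* and 1.31 times for *Smc3*. It was at 0.759 times that mean for *Rad21*, 0.89 times for *Sgo1* and 0.615 times for *Stag1*. Of the 8 tested members it was the highest quercetin pool for 5 and the lowest for 3, while over all tested genes it was the highest for 35.9% and the lowest for 38.1%. The summed *Mki67* and *Top2a* moved the same way, at 65.4 and 48.6 CPM in quercetin replicates 1 and 2 and 146 CPM in replicate 3, and their part in these values was not tested. Without quercetin replicate 3 the log2 fold change of *Smc1b* was -0.79 (edgeR unadjusted p = 0.00989, Benjamini-Hochberg adjusted 0.269) and that of *Sgo1* 0.44 (edgeR unadjusted p = 0.0234, adjusted 0.324). In that edgeR fit 1563 of 12258 tested genes had an unadjusted p under 0.05, against 477 of 11842 with all pools. The value of *Smc1b* was -0.15 without control replicate 2, -0.15 without quercetin replicate 1 and -0.14 without quercetin replicate 2. Without quercetin replicate 3 the log2 fold change was -0.08 for *Rad21*, -0.49 for *Rad21l*, -0.34 for *Smc1a*, -0.18 for *Smc3*, -0.11 for *Sgo2a* and -0.04 for *Espl1*, none with an unadjusted p under 0.05 in edgeR.

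**Figure D4:**
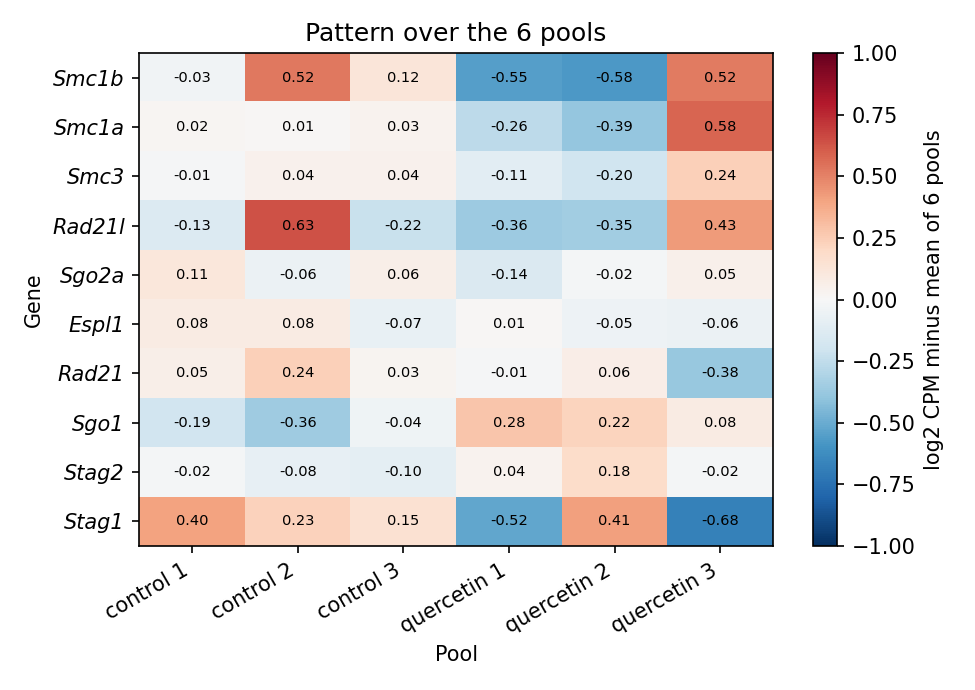
log2 CPM of the tested genes and of *Stag1* and *Stag2* in each pool after subtracting the mean of the 6 pools (colour and number). *Smc1b*, *Smc1a*, *Smc3* and *Rad21l* are above their mean in quercetin replicate 3 (0.52, 0.58, 0.24 and 0.43) and below it in quercetin replicates 1 and 2, while *Sgo1* is above its mean in all 3 quercetin pools.

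The genes with the most similar pattern over the 6 pools, by the mean absolute difference of centred log2 CPM among 7916 genes, were *Rab1a* for *Smc1b* (0.0707), *Pms1* for *Smc1a* (0.0389), *Gm35333* for *Rad21* (0.0421) and *Cenpu* for *Sgo1* (0.0239). *Cenpu*, a centromere protein gene, had 1113, 906 and 1172 counts in control and 1366, 1507 and 1310 with quercetin. *Pms1*, a mismatch repair gene, had 599, 585 and 615 counts in control and 467, 472 and 806 with quercetin.

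Genes that load, release and modify cohesin were measured in full, with all 11 tested. None passed the adjusted test and none had an unadjusted p under 0.05, with 6 above 0, 5 below 0 and a median log2 fold change of 0.14. *Stag1* had 574, 477 and 481 counts in control and 272, 593 and 259 with quercetin, a log2 fold change of -0.44 (SE 0.28, edgeR Benjamini-Hochberg adjusted p = 0.988). Without quercetin replicate 2, the quercetin pool with the most *Stag1* counts, it was -0.86 (edgeR unadjusted p = 0.00237, Benjamini-Hochberg adjusted 1.0). No other alternative gave *Stag1* an unadjusted p under 0.05. *Stag2* had 910, 811 and 858 counts in control and 848, 1070 and 868 with quercetin, a log2 fold change of 0.14 (edgeR adjusted p = 0.988). Its groups did not overlap in TMM-scaled CPM, being higher with quercetin as for 5.42% of all tested genes. They overlapped when scaled by library size only.

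*Hdac8*, the deacetylase that recycles SMC3, had the smallest p in the upward direction, at 19.2, 16.6 and 14.9 CPM in control and 23.6, 23.0 and 21.7 CPM with quercetin. Its groups did not overlap, as for 5.42% of all tested genes in this direction, and its log2 fold change was 0.43 (SE 0.20, edgeR unadjusted p = 0.056, Benjamini-Hochberg adjusted 0.988). *Wapl*, which opens the ring, had 6764, 1849 and 4995 counts in control and 6014, 7853 and 1700 with quercetin. Its low pools were control replicate 2 and quercetin replicate 3, and its log2 fold change was 0.23 (SE 0.54, edgeR adjusted p = 0.993).

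Of 16 genes of cohesin protection and cleavage, 15 were tested, and *Ppp2cb*, a catalytic subunit of PP2A, was not. None had an unadjusted p under 0.05, with 8 above 0, 7 below 0 and a median of 0.0. *Pttg1*, which encodes securin, the inhibitor of separase, was far more abundant than separase, with 33153, 23088 and 24438 counts in control and 26755, 42504 and 18263 with quercetin. At 1620 ± 442 RPKM (SD, n = 6) it stood beside 11.8 ± 0.551 RPKM for *Espl1*, and its log2 fold change was 0.14 (SE 0.26, edgeR adjusted p = 0.99). The smallest p upward in this list was that of *Set* (log2 fold change 0.58, edgeR unadjusted p = 0.186). Downward it was that of *Sgo2b* (log2 fold change -0.45, edgeR unadjusted p = 0.298), both with an adjusted p of 0.988. *Set* had 20 to 62 counts per pool, and 31.3% of its 31-base words occur in transcripts of other genes, against 8.77% for *Sgo2b*.

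All 14 genes of condensin and the SMC5/6 complex were tested, 3 above 0 and 11 below, with a median log2 fold change of -0.17. *Smc4*, a core condensin subunit, was at 866, 868 and 628 CPM in control and 558, 456 and 674 CPM with quercetin, and the groups overlapped. Its log2 fold change was -0.49 (SE 0.19, edgeR unadjusted p = 0.0316, Benjamini-Hochberg adjusted 0.988), the only one of the list under 0.05. *Ncapg2*, a condensin II subunit, had the smallest p upward with a log2 fold change of 0.37. *Smc5* was lower in all 3 quercetin pools than in the control pools, as for 5.17% of all tested genes, at 27.6, 29.5 and 26.8 CPM in control and 23.8, 21.7 and 24.0 CPM with quercetin. *Smc6*, its partner, was at 583, 576 and 562 CPM in control and 590, 592 and 590 CPM with quercetin. It was higher in all 3 quercetin pools, as for 5.42% of all tested genes, and its groups overlapped when counts were scaled by library size only.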

How the data were processed

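RNA was measured in 6 pools of M II oocytes, 3 control and 3 quercetin, grouped by the treatment in the sample labels. The study's methods name a smart-seq HT kit for the libraries, and the part of the library method in differences of level between genes was not tested. The authors deposited counts, the whole number of reads per Ensembl gene in each pool, without normalization. The study's methods name Hisat2 and GRCm38.91, while the submitters' processing notes list CASAVA 1.8, TopHat2 2.0.6 and mm10. The counting program, its use of strand and its handling of multi-mapped reads are not given in the sources used here, and nothing says that pools of a group came from separate experiments, so p-values measure the spread between these pools.

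Genes passing filterByExpr (minimum count 10; 11842 genes) were fitted with edgeR 4.0.16 under R 4.3.3, using TMM scaling, glmQLFit and glmQLFTest without covariates, and p-values were adjusted by Benjamini-Hochberg over these genes. Called genes had adjusted p under 0.05 with more than a 2-fold change. The fit was tested on simulated data with 200 changed genes. Coordinates and exon lengths came from GENCODE M21 on GRCm38 (53360 identifiers matched). Ratios of subunits used (count + 0.5) per exon length within a pool. They were compared by exact permutation tests in Python 3.11.15 with scipy 1.17.1.

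The members and lists were chosen with earlier results of these data known. Named genes are all members, *Stag1*, *Stag2*, *Pttg1* and *Wapl*, any called gene, and the smallest unadjusted p in each direction of each list. They also include the gene nearest in pattern (counts in every pool) for the 4 members with the widest range among those with a mean of at least 5 CPM, which leaves out *Rad21l*. *Smc5*, *Smc6* and *Ppp2cb* were named after their values were seen. Alternatives were DESeq2 1.42.0, the likelihood ratio test, limma-voom 3.58.1, other scalings, filters and lengths, a pseudocount of 3, leaving out each pool, and the replicate number as a block.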

Additional observations from a re-analysis of the deposited data

How the results depend on the processing

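The direction of *Rad21*, *Smc1b*, *Sgo1*, *Sgo2a* and *Espl1* held under all the alternatives run. The difference of the *Rec8* and *Stag3* ratios between groups is not given because their counts were at or near the floor. The number of genes past the adjusted p and fold change was 0, and 12 in DESeq2, 16 in the likelihood ratio test, 3 with a filter of 1 count in total and 0 to 7 when 1 pool was left out. The number of members with an unadjusted p under 0.05 was 1, and 0 in the likelihood ratio test, 0 with library size only, and 0 to 2 when 1 pool was left out. The 2 came without quercetin replicate 3, where 1563 of 12258 tested genes had an unadjusted p under 0.05 in edgeR. Library size only moved the median log2 fold change of all genes from -0.03 to -0.11.

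Directions turned for *Smc1a* (-0.04 in limma-voom, -0.03 with library size only, and -0.34 to 0.20 when 1 pool was left out, the low value without quercetin replicate 3). They also turned for *Rad21l* (-0.49 to 0.13, the low value without quercetin replicate 3 and the high one without control replicate 2) and *Smc3* (-0.18 to 0.05, above 0 without quercetin replicate 1 or 2). With 5 pools the exact sign-flip test cannot go below p = 0.0625, so the log2 ratio of *Rad21l* to *Rad21* lost the threshold, at -5.00 to -4.76. For the pairs without a p, leaving out 1 pool gave -10.95 to -10.84 for *Rec8* to *Rad21*. It gave -7.62 to -6.82 for *Stag3* to *Stag1* and -9.16 to -8.46 for *Stag3* to *Stag2*. The size of the *Rec8* and *Stag3* ratios is set largely by the pseudocount: a pseudocount of 3 in place of 0.5 gave -8.29, -5.56 and -7.15 for *Rec8* to *Rad21*, *Stag3* to *Stag1* and *Stag3* to *Stag2*, so they are no measured levels. The ratio of *Smc1b* to *Smc1a* was -0.64 with coding length and -0.62 without length. The difference of the *Rad21l* to *Rad21* ratio ran from -0.36 to 0.24 when 1 pool was left out, and was -0.36 without quercetin replicate 3. Without both control replicate 2 and quercetin replicate 3, chosen after seeing the data, the difference of the *Smc1b* to *Smc1a* ratio was -0.26 and the log2 fold change of *Sgo1* 0.37.

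With the replicate number as a block, 0 members had an unadjusted p under 0.05, *Sgo1* had a log2 fold change of 0.39 (edgeR unadjusted p = 0.0576) and *Smc1a* one of -0.04, while the difference of the *Smc1b* to *Smc1a* ratio stayed at -0.36. Same-numbered pools correlated at 0.296, 0.101 and -0.0303, against a mean of -0.0612 for different numbers. Whether the numbers pair the pools is not given in the sources used here, and these few values cannot settle it. The cause of these moves was not tested.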
